A study of Rattus norvegicus with 12 samples.

Results

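Impulse conduction in the heart was followed through 6 genes: the connexin genes Gja1, Gja5 and Gjc1, the sodium channel gene Scn4b, and the pacemaker channel genes Hcn2 and Hcn4. They were chosen by name, and each was found once among the 34599 genes of the count table. All 6 passed the filter on low counts that left 15101 genes for testing. RNA came from the left ventricle (LV) of 12 male Sprague-Dawley (SD) rats, 4 in each of 3 groups, taken 1 day after surgery. Sham rats had their chest opened without ligation of an artery. MI rats had the left anterior descending coronary artery tied off, which stops the blood supply of a region of the LV, and were not treated. In iCarP+/Light+ rats the same artery was tied off, a suspension of Chlorella, a green alga that makes oxygen in light, was injected into the infarct, and the transparent polyester patch iCarP was glued to the epicardium and lit through an optical fiber. These rats therefore differed from MI rats by alga, patch, adhesive and light together, and rats with the patch but without light were not analysed here. The labels place the tissue in the infarct region and do not say which region was taken in Sham rats.

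Libraries held 14064414 to 17136958 counted reads, so that 3 counts, the least taken as detected, corresponded to 0.144 to 0.228 CPM, a read count relative to library size. All CPM below are scaled by the TMM method of edgeR, and all fold changes come from its quasi-likelihood test with Benjamini-Hochberg adjustment over the 15101 genes and a threshold of 0.05. The groups differed over much of the transcriptome. Between MI and Sham 63.8% of genes passed the threshold, between iCarP+/Light+ and MI 13.6%, and between iCarP+/Light+ and Sham 66.5%. Cardiomyocyte marker genes, 13 in number, summed to 69251 to 74200 CPM in Sham, 4627 to 9433 CPM with untreated MI and 4087 to 10875 CPM under iCarP+/Light+. None of the 13 was at 0 in any group. For 11 leukocyte markers these sums were 516 to 772, 5466 to 8996 and 7904 to 14627 CPM in the same order. Ranges of the other marker sums in Sham, MI and iCarP+/Light+ rats were 2081 to 2288, 937 to 1485 and 1213 to 1401 CPM for endothelium, 1374 to 1482, 471 to 822 and 413 to 623 CPM for smooth muscle and pericytes, and 10581 to 13346, 2880 to 3291 and 1525 to 3127 CPM for fibroblasts. For red blood cells they were 138 to 158, 24.9 to 62.2 and 48.5 to 158 CPM, and for Schwann cells and nerve 24.1 to 35.6, 65.6 to 92.9 and 28.2 to 42.1 CPM. Mitochondrial transcripts took 22.8% to 28.9% of counts in Sham, 8.52% to 11.5% with MI and 7.14% to 14.2% under iCarP+/Light+, and the falls of Gja1, Scn4b and Hcn2 described below also passed the threshold with mitochondrial genes left out. The part of the marker sums in these falls was not tested. In bulk tissue, fewer cells of a type and less RNA per cell cannot be told apart.

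Working heart muscle passes current from cell to cell through gap junctions, channels built of connexins that join the cytoplasm of neighbours at the intercalated disc. The upstroke of each action potential is carried by voltage-gated sodium channels, in which a pore-forming alpha subunit is accompanied by beta subunits that tune its gating and its place in the membrane. Hyperpolarization-activated cyclic nucleotide-gated (HCN) channels carry the inward pacemaker current of the sinoatrial node and are also present at low density in ventricular muscle. Gja1 encodes connexin Cx43, the main connexin of ventricular muscle, which fibroblasts also make. Gja5 encodes Cx40, found in atrial muscle, the fast conduction fibers of the ventricle and arterial endothelium, and Gjc1 encodes Cx45, best known from the nodes and the conduction system.

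Upstream sequences are shown because Gja1, Scn4b and Hcn2 fell after infarction while Gja5 did not pass the test. The set of RefSeq upstream windows used here held 4 of the 6 genes. The 250 bases before the annotated start are given 5′ to 3′ on the strand of the gene, with coordinates of the GRCr8 build. Capitals mark AP-1 (TGANTCA) in Gja1, a TATA box (TATAAA) and a GC box (GGGCGG) in Gja5, E-boxes (CANNTG) in Scn4b and GC boxes in Hcn2, searched on both strands.
Gja1, chr20:36302314-36302563, + strand: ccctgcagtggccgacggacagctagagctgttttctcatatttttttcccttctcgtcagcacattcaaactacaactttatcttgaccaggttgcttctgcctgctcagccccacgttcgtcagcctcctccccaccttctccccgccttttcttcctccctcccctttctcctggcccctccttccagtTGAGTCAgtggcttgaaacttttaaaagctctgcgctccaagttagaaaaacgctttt
Gja5, chr2:187290977-187291226, + strand: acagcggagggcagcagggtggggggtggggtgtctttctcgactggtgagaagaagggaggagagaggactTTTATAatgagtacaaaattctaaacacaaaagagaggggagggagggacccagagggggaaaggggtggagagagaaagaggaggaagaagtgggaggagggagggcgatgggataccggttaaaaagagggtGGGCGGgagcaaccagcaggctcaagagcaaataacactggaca
Scn4b, chr8:54343623-54343872, + strand: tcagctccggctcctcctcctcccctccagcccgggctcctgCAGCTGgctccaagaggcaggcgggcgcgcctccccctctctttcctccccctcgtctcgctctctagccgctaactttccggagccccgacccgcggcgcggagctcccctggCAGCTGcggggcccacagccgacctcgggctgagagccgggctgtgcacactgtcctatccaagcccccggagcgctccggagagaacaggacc
Hcn2, chr7:10639458-10639707, - strand: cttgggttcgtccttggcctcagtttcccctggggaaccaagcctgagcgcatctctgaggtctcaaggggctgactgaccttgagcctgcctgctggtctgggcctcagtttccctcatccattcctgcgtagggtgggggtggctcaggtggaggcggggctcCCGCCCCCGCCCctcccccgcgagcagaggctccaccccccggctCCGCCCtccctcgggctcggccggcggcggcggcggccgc
Both windows of the genes with the deepest fall, Scn4b and Hcn2, had a GC content of 71.6%, above that of 93.6% of the 33465 rat windows of this length, whose median was 51.2%. The Gja1 window had 51.2% and the Gja5 window 54.8%. An AP-1 match, present in 6.34% of all windows, began 58 bases before the start of Gja1, and an E-box match that shares bases with it began at 62 bases. The Scn4b window held 2 E-boxes, at 208 and 94 bases, a motif found in 65.5% of windows. The 3 GC boxes of Hcn2 lay at 85, 79 and 40 bases before the start, beside an E-box at 103 bases, and 30.5% of windows held a GC box. In Gja5 the TATA box lay at 178 bases and the GC box at 44 bases, and 12.9% of windows held a TATA box. The letters AGGTGT of a T-box site and TNAAGTG of an NKX2-5 site, present in 11.6% and 9.89% of windows, were in none of the 4. These are matches of letters only.

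Levels of different genes were compared as RPKM, the TMM-scaled CPM per kilobase of gene length. In Sham rats Gja1 had the highest level, 118 ± 25.4 RPKM (SD, n = 4), followed by Hcn2 at 79.6 ± 14.5 RPKM, whose range over rats overlapped that of Gja1. Scn4b came next at 34 ± 7.84 RPKM. Gjc1 followed at 13.0 ± 1.60 RPKM, then Gja5 at 5.31 ± 0.875 RPKM and Hcn4 at 2.49 ± 1.49 RPKM. From Hcn2 down, no neighbours in this order overlapped in Sham rats. The order differed in the infarct. In MI rats Gja1 was again highest at 55.3 ± 15.1 RPKM (SD, n = 4), and Gjc1 at 11.3 ± 1.16 RPKM came next, with no overlap between them or between Gjc1 and Gja5. Gja5 at 5.86 ± 2.5, Hcn2 at 3.86 ± 1.27, Hcn4 at 1.72 ± 1.54 and Scn4b at 1.52 ± 1.32 RPKM each overlapped the next gene in the order. Under iCarP+/Light+ the same order of means held, with 63.1 ± 9.53 RPKM for Gja1, 9.87 ± 0.920 for Gjc1, 5.52 ± 0.788 for Gja5, 3.22 ± 1.24 for Hcn2, 2.61 ± 2.02 for Hcn4 and 1.72 ± 0.715 for Scn4b (SD, n = 4). There Gja1, Gjc1, Gja5 and Hcn2 did not overlap in sequence, whereas Hcn2, Hcn4 and Scn4b overlapped in sequence.

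**Figure D1:**
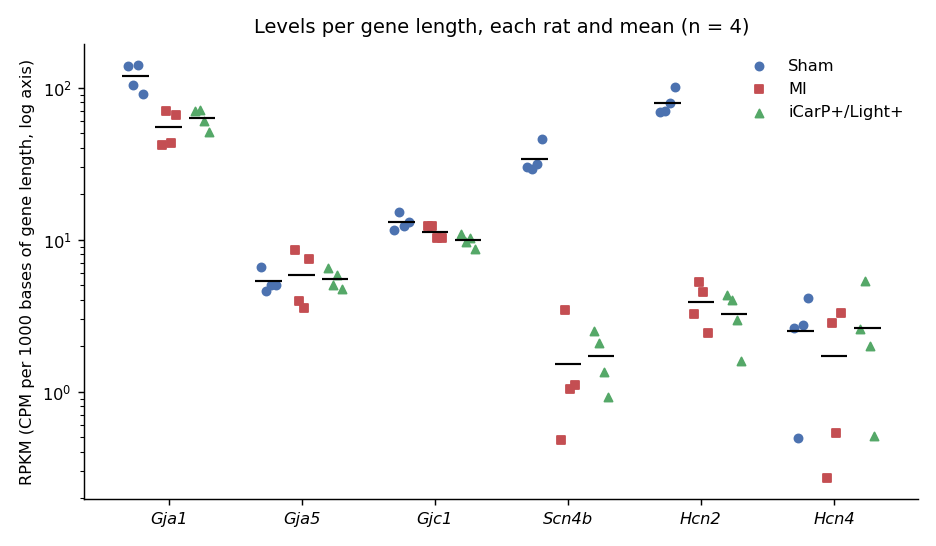
Level of each gene per gene length (RPKM, log axis) in the 4 rats of each group, with a line at the mean. Hcn2 and Scn4b lay between Gja1 and Gjc1 in Sham rats, at means of 79.6 and 34 RPKM, while their means lay below that of Gja5 in MI and iCarP+/Light+ rats, with Hcn2 overlapping Gja5 in MI rats.

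Of the 6 genes, 3 fell between Sham and MI rats and 3 did not pass the threshold, against a background of 63.8% of all genes tested, made up of 33.6% called lower and 30.2% called higher. The median log2 fold change of the 6 was -0.81, that of all genes tested -0.060. Between iCarP+/Light+ and MI rats 0 of the 6 passed by edgeR, 0 by DESeq2 and 0 by limma-voom, where 13.6% of all genes did (11.6% higher and 2.01% lower), and 0 of the 6 had an unadjusted p under 0.05 by any of these tools. Between iCarP+/Light+ and Sham rats 4 fell and 2 did not pass, with a background of 66.5% called, 33.5% higher and 33% lower. In CPM, 3 of the 6 did not overlap between MI and Sham, where 59% of all genes did not (27.6% higher, 31.4% lower). None of the 6 separated iCarP+/Light+ from MI, where 16.4% did (12.1% higher, 4.37% lower), and 4 separated iCarP+/Light+ from Sham, where 63.5% did (31.9% higher, 31.6% lower). The 3 comparisons share their groups, so they are not independent. Scaling by library totals alone moved the median over all genes to 0.52, -0.25 and 0.33 in these comparisons, and the split of calls between MI and Sham went from 4553 higher and 5080 lower to 7707 higher and 2776 lower. Values under that scaling are therefore given relative to these medians as well.

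**Figure D2:**
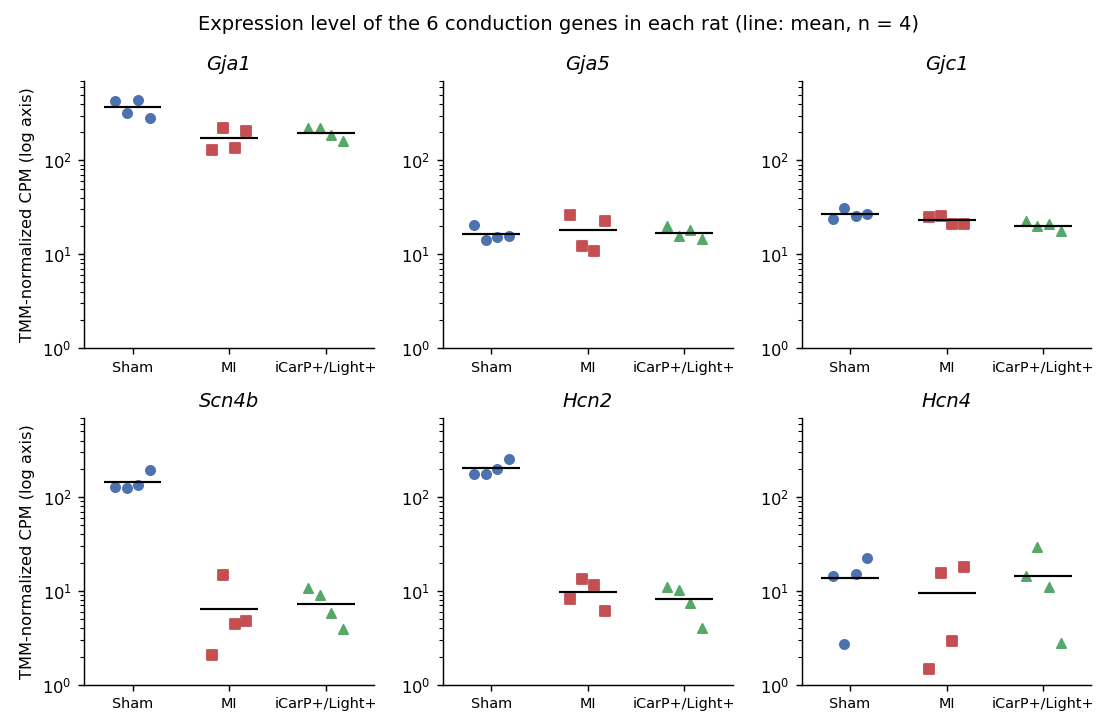
TMM-scaled CPM (log axis) of the 6 genes in each of 12 rats, 4 per group, with a line at the group mean. Scn4b and Hcn2 were between 125 and 255 CPM in Sham rats and between 2.06 and 14.7 CPM in infarcted rats, while Hcn4 spread widely within each group.

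Gja1 (ENSRNOG00000000805, chromosome 20, 37876650 to 37889089, plus strand, rn6) fell after infarction in both groups of rats. Sham rats had 433, 323, 442 and 283 CPM, MI rats 130, 220, 135 and 207 CPM, and iCarP+/Light+ rats 219, 223, 188 and 159 CPM. Every infarcted rat of either group lay below the lowest Sham rat on this scale. In CPM scaled by total counts alone, MI 3, MI 5 and iCarP+/Light+ 1, at 269, 261 and 229, stood above Sham 5 at 227. MI differed from Sham by -1.10 on the log2 scale (SE 0.21, edgeR adjusted p = 4.64e-04), or 2.14 times lower. From Sham to iCarP+/Light+ it was -0.91 (SE 0.21, edgeR adjusted p = 0.0017), 1.88 times lower. MI and iCarP+/Light+ rats overlapped, with a log2 difference of 0.19 (95% interval -0.26 to 0.63, edgeR adjusted p = 0.626). Both falls passed the threshold under every alternative fit and with any 1 rat left out. The smallest changes were under total counts alone, with -0.51 for MI (adjusted p = 0.0484) and -0.59 for iCarP+/Light+ (adjusted p = 0.0258), or -1.03 and -0.92 less the overall median. Between MI and Sham, 3014 of the 15101 genes had a lower fold change than Gja1.

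Gja5 (ENSRNOG00000017484, chromosome 2, 199162745 to 199184939, plus strand) kept a similar mean in the 3 groups and varied most among MI rats. Its levels were 20.3, 14.2, 15.4 and 15.6 CPM in Sham rats, 26.4, 12.1, 10.9 and 22.8 CPM in MI rats, and 19.97, 15.6, 17.95 and 14.6 CPM in iCarP+/Light+ rats. MI rats 1 and 5 stood above every Sham rat and MI rats 3 and 4 below every Sham rat. Their coefficient of variation (CV) was 42.7%, above that of 93.2% of genes with a mean of 5 CPM or more, against 16.5% in Sham and 14.3% in iCarP+/Light+ rats. On the log2 scale Gja5 differed by 0.14 between Sham and MI (95% interval -0.41 to 0.70, edgeR adjusted p = 0.644), -0.087 from MI to iCarP+/Light+ (-0.64 to 0.47, adjusted p = 0.873) and 0.057 from Sham to iCarP+/Light+ (-0.50 to 0.62, adjusted p = 0.861). Under total counts alone the first value was 0.74 (adjusted p = 0.0291), which is 0.22 once the overall median is subtracted. Arterial endothelium also makes Cx40, and the sum of 7 of its markers, the connexin gene Gja4 among them, was 281 to 337 CPM for Sham, 151 to 246 CPM for MI and 240 to 280 CPM for iCarP+/Light+. Sums of 6 atrial markers were 96.9 to 152, 370 to 1074 and 869 to 1045 CPM, with 1 of them at 0 in all iCarP+/Light+ rats. Nppa, which ventricular muscle also makes under load, had group means of 104, 779 and 961 CPM, and Myl7 had 20.2, 4.75 and 1.85 CPM. The part of either in these levels was not tested.

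Gjc1 (ENSRNOG00000048838, chromosome 10, 90781402 to 90912287, minus strand) had the lowest CV of the 6 in each group, 12.3% for Sham, 10.3% for MI and 9.32% for iCarP+/Light+. Sham rats had 23.6, 31.2, 25.3 and 26.6 CPM, MI rats 25.0, 25.3, 21.0 and 21.1 CPM, and iCarP+/Light+ rats 22.4, 19.8, 20.9 and 17.9 CPM. MI rats overlapped both other groups, whereas every iCarP+/Light+ rat lay below every Sham rat. The fall from Sham to iCarP+/Light+ was -0.40 on the log2 scale (SE 0.12, edgeR adjusted p = 0.0109). That call was lost under total counts alone (-0.086, adjusted p = 0.613, or -0.42 less the overall median) and without iCarP+/Light+ rat 5 (-0.31, adjusted p = 0.0501). The change from Sham to MI was -0.21 (95% interval -0.47 to 0.05, edgeR adjusted p = 0.151) and turned to 0.37 (adjusted p = 0.0343) under total counts alone, -0.15 relative to the median. Between MI and iCarP+/Light+ it was -0.19 (95% interval -0.45 to 0.07, edgeR adjusted p = 0.364), and -0.46 (adjusted p = 0.0351) under total counts alone, -0.20 relative to the median. An unprocessed pseudogene, AABR07030502.1, lies inside Gjc1 on the other strand and had 0 counts in every rat, and no other member overlapped an annotated gene.

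The balance of the connexins was read as a ratio of counts within each rat, which does not depend on how libraries are scaled. Gja5 counts were 0.0470, 0.0441, 0.0349 and 0.0551 times those of Gja1 in Sham rats, 0.203, 0.0553, 0.0811 and 0.110 times in MI rats, and 0.0915, 0.0700, 0.0957 and 0.0916 times in iCarP+/Light+ rats. The lowest MI rat and the highest Sham rat were close to one another, and every iCarP+/Light+ rat was above every Sham rat. The mean log2 ratio exceeded that of Sham by 1.16 for MI and by 0.95 for iCarP+/Light+, each with p = 0.0286 in a two-sided exact permutation test, the smallest p that 4 against 4 rats allow. Adjusted over the 9 ratio comparisons these became 0.0514. Gjc1 counts were 0.0545 to 0.0967 times those of Gja1 for Sham, 0.102 to 0.192 times for MI and 0.0889 to 0.112 times for iCarP+/Light+. Its mean log2 value was 0.91 higher in MI than in Sham rats (exact permutation p = 0.0286, adjusted 0.0514) and 0.50 higher in iCarP+/Light+ than in Sham rats (exact permutation p = 0.0857, adjusted 0.129). From MI to iCarP+/Light+ the 2 ratios differed by -0.21 (exact permutation p = 0.686) and -0.41 (p = 0.143, adjusted 0.184).

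**Figure D3:**
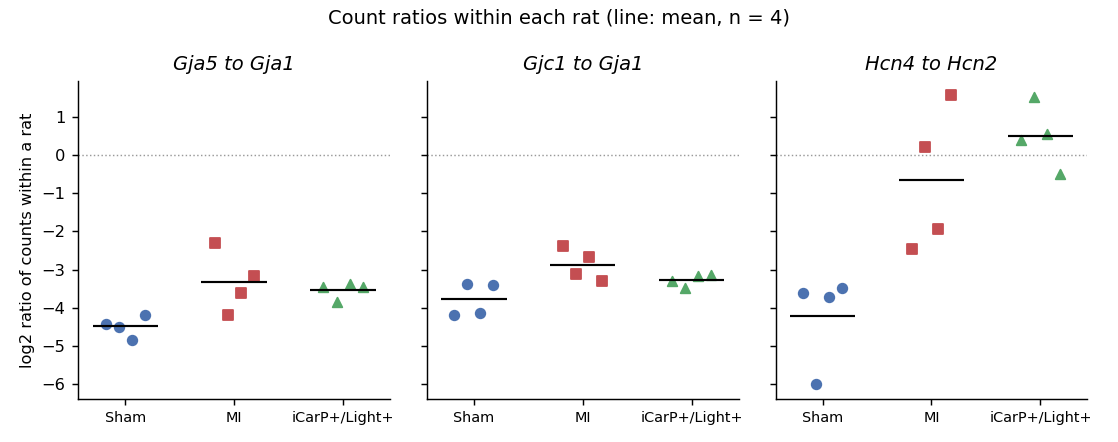
Log2 ratio of counts of 2 genes within each rat, 4 rats per group, with a line at the mean and a dotted line at equal counts. The Hcn4 to Hcn2 ratio was at most -3.49 in the 4 Sham rats and between -2.45 and 1.55 in infarcted rats.

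Of 20 other connexin and pannexin genes listed, 6 passed the filter, and 2 of these rose and 3 fell between Sham and MI rats, where 30.2% of all genes tested rose and 33.6% fell. Gjb2, the Cx26 gene, rose from 1.01 to 7.54 CPM (log2 2.88, SE 0.44, edgeR adjusted p = 7.81e-05). Gja3, the Cx46 gene, fell from 17.2 to 2.87 CPM (log2 -2.58, SE 0.34, adjusted p = 2.38e-05) and Panx2 from 9.89 to 1.80 CPM (log2 -2.46). The untested connexins and pannexins in the table had at most 85 counts over the 12 rats together, and Gja6 was not analysed here. Among 21 measured genes of the intercalated disc and connexin partners, 18 fell and 1 rose in the same comparison, with a median of -1.26 against -0.060 for all genes. The desmosome gene Dsp fell from 839 to 98.1 CPM (log2 -3.10, SE 0.30, adjusted p = 1.89e-06) and Ank2, the ankyrin-B gene, by 2.75 on the log2 scale. Xirp2, a disc-associated actin-binding gene, rose from 168 to 867 CPM (log2 2.37, SE 0.24). Counts for the disc list became 4 higher and 11 lower under total counts alone. The count of 1 that rose was 2 by DESeq2 or without iCarP+/Light+ rat 5, and 3 with only the rats of the 2 groups. In iCarP+/Light+ against Sham rats 15 disc genes fell and 1 rose (2 under total counts alone), and 3 other connexins and pannexins fell and 2 rose, beside 33% of all genes lower and 33.5% higher, with Dsp at -2.96, Tmem65 at -2.25, Gja3 at -2.43 and Gjb2 at 2.86.

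Scn4b (ENSRNOG00000026679, chromosome 8, 49441106 to 49456279, plus strand), which encodes a beta subunit that is joined to the alpha subunit by a disulfide bond, had the lowest log2 fold change of the 6 between Sham and MI. Sham rats had 128, 125, 133 and 195 CPM, MI rats 2.06, 14.7, 4.42 and 4.73 CPM, and iCarP+/Light+ rats 10.7, 8.94, 5.76 and 3.94 CPM. The lowest Sham rat was several-fold above the highest infarcted rat, and the lowest library, MI rat 1, still held 43 Scn4b counts. From Sham to MI the gene was 22.5 times lower (log2 -4.49, SE 0.51, edgeR adjusted p = 6.36e-06), and 124 of the 15101 genes, 0.821%, had a lower fold change. With each rat left out in turn, this log2 value ran from -5.28 to -4.18. From Sham to iCarP+/Light+ Scn4b was 19.7 times lower (log2 -4.30, SE 0.51, adjusted p = 7.49e-06). Between iCarP+/Light+ and MI the difference was 0.19 (95% interval -0.85 to 1.22, edgeR adjusted p = 0.848), and -0.072 under total counts alone, 0.18 less the overall median. Among MI rats the CV was 86.7%, above that of 99.3% of genes. The rat with the highest Scn4b, MI 3, also had the highest cardiomyocyte marker sum of its group, 9433 CPM, and MI 1 had the lowest of both, 4627 CPM for the markers. MI 4 and MI 5 went the other way, with marker sums of 8352 and 7737 CPM beside Scn4b at 4.42 and 4.73 CPM. Among Sham rats, Sham 5 had the highest Scn4b and the lowest marker sum, 69251 CPM. In iCarP+/Light+ rats 1, 2, 4 and 5 the marker sums, 10875, 9099, 5295 and 4087 CPM, had the same order as Scn4b, and the part of these cells in the level was not tested.

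Other genes of sodium channel subunits and their partners mostly fell as well. Of 13 tested among 18 listed, 5 of them partners (Fgf12, Fgf13, Gpd1l, Rangrf and Nedd4l), 10 fell and 1 rose between Sham and MI rats, with a median of -1.96, beside 33.6% lower and 30.2% higher among all genes. Fgf13 and Fgf12, intracellular factors that bind the channel, fell by 3.26 and 3.19, and Scn7a, a sodium-sensing relative, by 2.27 on the log2 scale. The 1 gene that rose was Scn3b, another beta subunit, from 3.44 to 8.04 CPM (log2 1.22, SE 0.30, adjusted p = 0.0031), which was named after its values were seen. In iCarP+/Light+ against Sham rats the counts were again 10 lower and 1 higher, beside 33% lower and 33.5% higher among all genes, with Fgf13 at -2.84, Scn7a at -2.42, Rangrf, a trafficking partner, at -2.35 and Scn4a, the skeletal muscle alpha subunit, at -2.19.

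Hcn2 (ENSRNOG00000008831, chromosome 7, 12851739 to 12874215, minus strand) fell after infarction in both groups of rats, with a smaller SE than Scn4b. Sham rats had 177, 177, 200 and 255 CPM, MI rats 8.24, 13.4, 11.5 and 6.17 CPM, and iCarP+/Light+ rats 11.0, 10.2, 7.52 and 4.01 CPM. Sham and infarcted rats were far apart, and the infarcted groups overlapped. The level was 20.6 times lower in MI than in Sham rats (log2 -4.37, SE 0.31, edgeR adjusted p = 2.02e-07; 142 genes, 0.940%, had a lower fold change) and 24.6 times lower in iCarP+/Light+ than in Sham rats (log2 -4.62, SE 0.32, adjusted p = 9.19e-08; 60 genes were lower). iCarP+/Light+ differed from MI by -0.26 (95% interval -0.89 to 0.38, edgeR adjusted p = 0.645). The falls of Scn4b and Hcn2 from Sham passed the threshold under every alternative fit and with any 1 rat left out.

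Hcn4 (ENSRNOG00000009450, chromosome 8, 63600663 to 63639654, plus strand), the subtype that predominates in the sinoatrial node, differed more between rats of a group than between groups. Sham rats had 14.4, 2.73, 15.2 and 22.7 CPM, MI rats 1.48, 15.5, 2.96 and 18.1 CPM, and iCarP+/Light+ rats 14.3, 29.4, 11.0 and 2.81 CPM, from 31 to 487 counts. One or 2 rats of each group stood low, namely Sham 2, MI 1, MI 4 and iCarP+/Light+ 5, and the groups overlapped throughout. Its CV was 60.0% for Sham, 89.4% for MI and 77.2% for iCarP+/Light+ rats, where the median gene of 11129 had 11.2%, 16.3% and 14.8%, so that Hcn4 exceeded 98.0%, 99.4% and 99.2% of genes. Differences on the log2 scale were -0.53 from Sham to MI (95% interval -2.26 to 1.2, edgeR adjusted p = 0.582), 0.60 from MI to iCarP+/Light+ (-1.12 to 2.33, adjusted p = 0.699) and 0.073 from Sham to iCarP+/Light+ (-1.65 to 1.79, adjusted p = 0.943). Under total counts alone the first was 0.088, -0.43 less the overall median. The last was -0.27 without Sham rat 2 and -0.54 without iCarP+/Light+ rat 2, and the second -0.015 without the latter. Conduction system markers, 6 genes without Hcn4, summed to 37.7 to 47.4 CPM for Sham, 9.51 to 20.6 CPM for MI and 11.1 to 17.7 CPM for iCarP+/Light+. Of the 6, 2 were at 0 in all Sham and all MI rats and 1 in all iCarP+/Light+ rats, and their part in the Hcn4 level was not tested.

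Within the HCN family, the share of Hcn4 was higher in every infarcted rat than in every Sham rat. Per length, Hcn2 made up 96.1% to 99.3% of HCN RNA in Sham rats, 42.4% to 92.3% in MI rats and 42.9% to 75.6% in iCarP+/Light+ rats. Hcn4 made up 0.706% to 3.94%, 7.66% to 57.3% and 24.4% to 56.9%, and Hcn3 had at most 2 counts in any rat, below the floor of 3. Total HCN RNA was 82.1 ± 15.7 RPKM in Sham, 5.6 ± 1.9 RPKM with MI and 5.83 ± 3.08 RPKM under iCarP+/Light+ (SD, n = 4). In counts, Hcn4 was 0.0815, 0.0156, 0.0760 and 0.0892 times Hcn2 in Sham rats, 0.183, 1.16, 0.260 and 2.93 times in MI rats, and 1.31, 2.88, 1.47 and 0.704 times in iCarP+/Light+ rats. The mean log2 ratio exceeded that of Sham by 3.55 for MI and by 4.69 for iCarP+/Light+ (two-sided exact permutation p = 0.0286 each, adjusted 0.0514), so that no ratio passed 0.05 after adjustment. It was 1.15 above MI for iCarP+/Light+ (exact permutation p = 0.286, adjusted 0.321).

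Of 9 tested pacemaker and nodal channel genes, 9 fell between Sham and MI rats, where 33.6% of all genes fell, and 9 between Sham and iCarP+/Light+ rats, where 33% fell. Kcnj3, a subunit of the acetylcholine-activated potassium channel, fell from 18.7 to 1.45 CPM (log2 -3.69, SE 0.42, edgeR adjusted p = 6.07e-06). The calcium channel genes Cacna1d and Cacna1c fell by 2.23 and 1.96, and Bves, a membrane gene of heart and skeletal muscle, by 2.18 on the log2 scale. The list's median was -1.94 in MI and -1.52 in iCarP+/Light+ rats, with Kcnj3 at -3.10, Bves at -2.48 and Popdc2 at -2.19 in the latter. Among 20 tested genes on a list of conduction and other cardiac transcription factors, 16 fell and 2 rose between Sham and MI rats. Their median was -1.45, and the background was the same 33.6% lower and 30.2% higher. Prox1 fell by 3.28, the ventricular factor Irx4 by 2.92, Tbx5 by 2.06 and Irx5 by 2.02 on the log2 scale. Between Sham and iCarP+/Light+ rats 15 fell and 2 rose, against 33% lower and 33.5% higher, with Prox1 at -2.85, Tbx5 at -2.34, Etv1 at -2.23 and Id2 at 2.53.

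**Figure D4:**
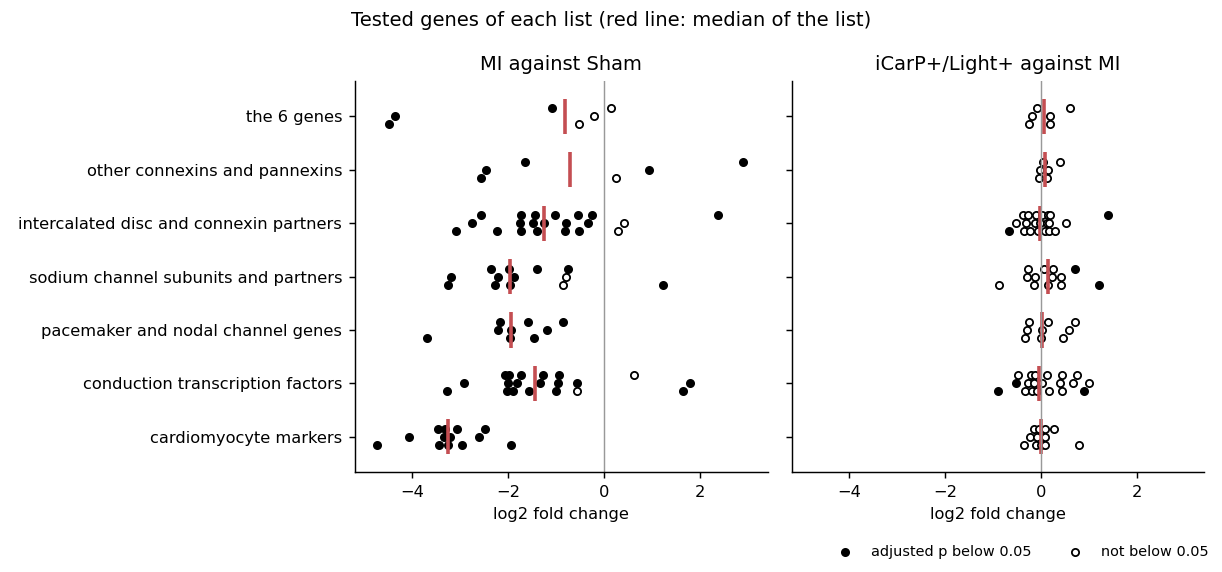
Log2 fold change of every tested gene in each list, MI against Sham and iCarP+/Light+ against MI, with filled points for adjusted p below 0.05 and a red line at the list's median. Medians between Sham and MI were -1.96 for sodium channel subunits and partners, -1.94 for pacemaker genes and -3.25 for cardiomyocyte markers.

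Between iCarP+/Light+ and MI rats, where 13.6% of all genes passed the threshold, 2 of 21 disc genes, 2 of 13 sodium channel subunits and partners and 3 of 20 transcription factors did. The other connexins and pannexins had 0 calls of 6 and the pacemaker genes 0 of 9 by edgeR, DESeq2 and limma-voom, with 0 at an unadjusted p under 0.05 by each tool. Among disc genes, Cxadr, which encodes the coxsackievirus and adenovirus receptor of the disc, rose from 4.66 to 12.2 CPM (log2 1.39, SE 0.30, edgeR adjusted p = 0.0065), and Ank3 fell from 32.7 to 20.6 CPM (log2 -0.66, adjusted p = 0.0229). Both sodium channel calls were of partners, not subunits. Fgf12 rose from 3.64 to 8.36 CPM (log2 1.2, SE 0.23, adjusted p = 0.0036) and Nedd4l, a ubiquitin ligase that acts on sodium channels, from 15.0 to 24.4 CPM (log2 0.70, adjusted p = 0.01). Of the transcription factors, Id2 rose from 75.7 to 141 CPM (log2 0.90, SE 0.19, adjusted p = 0.0054), while Etv1 (log2 -0.89, adjusted p = 0.047) and Mef2c (log2 -0.53, adjusted p = 0.0215) fell. The count of 2 transcription factors that fell became 0 or 1 in 10 of 12 fits with 1 rat left out, the exceptions being those without MI 4 and without iCarP+/Light+ 5, 4 under total counts alone, and 1 by limma-voom or with only the rats of these 2 groups. The count of 1 disc gene that fell became 0 without MI 1, without MI 5 or without iCarP+/Light+ 4. It became 5 under total counts alone and 3 by DESeq2. With a replicate block, this count and that of transcription factors that fell both became 0. Under total counts alone 1 gene of the list of sodium channel subunits and partners rose and 1 fell. Without iCarP+/Light+ 4, 2 disc genes rose, and without iCarP+/Light+ 5, 1 gene of the sodium channel and partner list rose in place of 2. Without MI 4 or without iCarP+/Light+ 1, 1 gene of that list fell in place of 0.

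**Figure D5:**
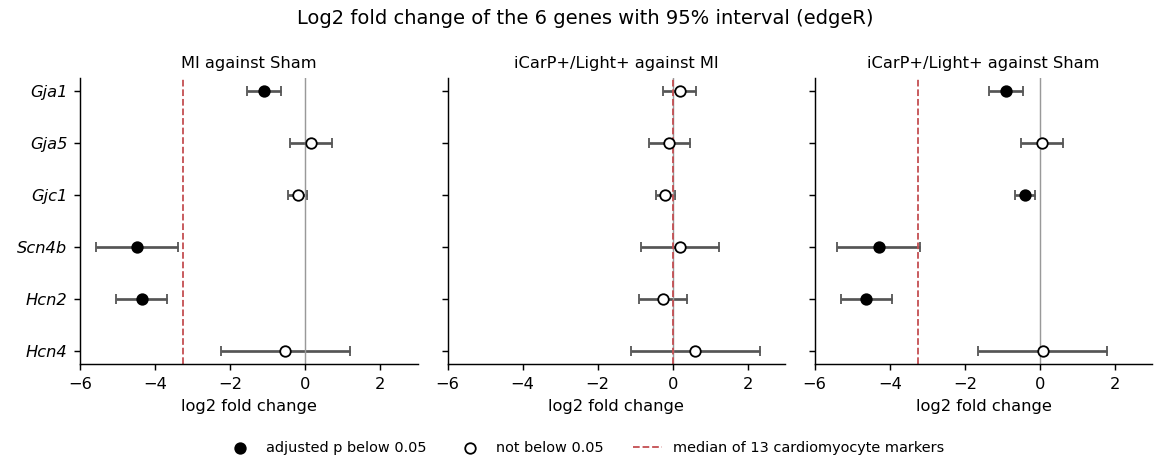
Log2 fold change and 95% interval of each gene in the 3 comparisons, filled where the edgeR adjusted p was below 0.05, with a dashed line at the median of 13 cardiomyocyte markers. Between MI and Sham, Scn4b at -4.49 and Hcn2 at -4.37 lay below the marker median of -3.25, and the other 4 genes above it. The 13 markers ranged from -4.73 to -1.94, so Scn4b and Hcn2 lay inside their range.

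The 6 genes were also set against the cardiomyocyte markers of the same rat, as the log2 CPM of the gene less the mean log2 CPM of the 13 markers. That marker mean fell by 3.29 from Sham to MI and by 3.30 from Sham to iCarP+/Light+ and differed by -0.014 between the infarcted groups. Log2 fold changes of the single markers between MI and Sham ran from -4.73 to -1.94. That range holds Scn4b at -4.49 and Hcn2 at -4.37. Relative to the marker mean, Scn4b differed by -1.5 and Hcn2 by -1.10 between MI and Sham (Scn4b -6.64 to -5.0 against -4.86 to -3.98, Hcn2 -6.04 to -4.70 against -4.36 to -3.60). Gja1 was higher by 2.18, Hcn4 by 2.45, Gjc1 by 3.09 and Gja5 by 3.34. In iCarP+/Light+ against Sham rats the differences were -1.06 for Scn4b, -1.39 for Hcn2, 2.41 for Gja1, 2.91 for Gjc1, 3.29 for Hcn4 and 3.36 for Gja5. With the 3 markers Tnnt2, Tnni3 and Actc1 alone, the Scn4b difference between MI and Sham was -1.73 and that of Hcn2 -1.34. These values are descriptions without a test, because a ratio to markers that themselves fell does not show which of the genes changed in a cell.

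Over the 12 rats, log2 CPM of Scn4b and Hcn2 had a Pearson correlation of 0.97, and 0.71 after the group means were removed. The corresponding values were 0.91 and 0.58 for Gja1 and Scn4b, 0.51 and 0.72 for Gja1 and Hcn4, 0.36 and 0.72 for Scn4b and Hcn4, and -0.019 and 0.084 for Gja1 and Gja5. Among 10721 protein-coding genes with a mean of at least 5 CPM, the 3 most like Scn4b were Ptpn3, Rbfox1 and Tnni3k at 0.99. Those most like Hcn2 were Ndufa10, Sirt5 and Uqcrc1, each at 0.995, on chromosomes 9, 17 and 8. They are nuclear genes of mitochondrial proteins. Bmpr1a, Cxxc4 and Trim2 were most like Gja1 at 0.97, and Wdr24 at 0.91, Hace1 at 0.90 and Trnau1ap at 0.90 were most like Gjc1. The gene most like Gja5 was Gja4, which encodes another arterial connexin, at 0.90, followed by Thada at 0.83 and Nr2f2 at 0.82. Gja4 was highest in MI rats 1 and 5, at 43.4 and 44.4 CPM, and lowest in MI rats 4 and 3, at 22.4 and 26.9 CPM among MI rats, the same split of MI rats as for Gja5. The gene most like Hcn4 was Yif1b at 0.91, which ranged from 1.5 to 29.97 CPM, followed by Sema5a at 0.85 and Dgka at 0.82. Yif1b was lowest in Sham 2, MI 1, iCarP+/Light+ 5 and MI 4, at 1.5, 2.92, 3.38 and 4.53 CPM, the 4 rats that were also low in Hcn4. Gja4 and Yif1b were picked for their high correlation over these same 12 rats, so sharing high or low rats follows from that choice. These correlations are descriptions over 12 rats in 3 groups whose libraries share the same scaling.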

How the data were processed

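The authors deposited 1 table of raw counts per gene for the 12 rats, without normalization, with Ensembl identifiers, symbols, positions and lengths. HISAT2, featureCounts and the rn6 build are named in the submitters' processing notes, and versions, annotation release and strand setting are not given in the sources used here, so reads of overlapping genes on opposite strands may not be separable. Total RNA was extracted with Trizol and libraries were made with the NEBNext Ultra RNA kit, per the labels. No unused sample column was in the table (0).

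Genes were filtered by filterByExpr (minimum count 10, 3 groups), scaled by TMM and tested by the quasi-likelihood method of edgeR 4.0.16 (R 4.3.3) in 1 fit over the 3 groups of 4 rats, without a block, with Benjamini-Hochberg adjustment over 15101 genes and a threshold of 0.05. Log2 CPM used a prior count of 2. Count ratios within a rat, with 0.5 added to each count, were compared by two-sided exact permutation tests over 70 arrangements. RPKM were computed from TMM-scaled CPM and the gene lengths of the table. The floor of 3 counts covers counting error only, since reads carried no molecular identifiers. Rats of a group come from separate animals as labelled, and the 18 within-group pairs differed by a chi-square per gene of 14.8 to 119, where counting noise gives about 1.

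The members and the gene and marker lists were chosen with earlier results of these data known. From each gene list and comparison, up to 4 genes with the largest absolute log2 fold change among those past the threshold were named, and for each member the 3 most correlated protein-coding genes. The symbols Gja6, Ctnna3, Pkp2, Ttn, Pecam1 and Itgam were not analysed here, and some items are not reported here. Upstream sequences are from RefSeq, GRCr8, whose coordinates are separate from those of rn6. Alternatives were DESeq2 size factors, total counts alone, DESeq2 1.42.0, limma-voom (limma 3.58.1), other filters, protein-coding or non-mitochondrial genes only, the 2 compared groups only, a replicate block, each rat left out, 5 added to counts in ratios, and 3 markers. Plots were drawn with matplotlib 3.10.9.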

Additional observations from a re-analysis of the deposited data

Results flagged for a closer look

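Values of the 6 genes and of the 3 count ratios in each group, 27 groups of 4 rats in all, were examined for a single rat far from the others, measured as its gap to the nearest rat divided by the whole range, and set against Dixon's critical value at the 95% level. Chance gives about 1 in 20 such groups, 1.35 here, and 3 were found. Scn4b in Sham rat 5 was the highest of its group, with a gap of 0.858 of the range, at a log2 CPM of 7.61 against 6.97 to 7.06 in the other Sham rats. The Gja5 to Gja1 ratio of iCarP+/Light+ rat 2 was the lowest of its group, with a gap of 0.855 of the range, at -3.84 on the log2 scale against -3.45 to -3.38. The Hcn4 to Hcn2 ratio of Sham rat 2 was also the lowest, with a gap of 0.908 of the range, at -6.0 on the log2 scale against -3.72 to -3.49.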

How the results depend on the processing

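With 4 rats per group, Hcn4 intervals ran from -2.26 to 1.2 on the log2 scale between MI and Sham, and levels under 0.144 to 0.228 CPM could not be detected. Of 687 values under alternatives other than leaving out a rat, 649 counted as kept, and of 864 values with 1 rat left out, 790 did. Tests counted as kept with the same direction and side of the threshold, and counts within 1.5 times. Medians over all genes and marker-relative values counted as kept within a set margin, whatever their sign. Gjc1 relative to the markers, iCarP+/Light+ against MI, was one such value, at -0.18 and, with 3 markers, 0.047. The falls of Gja1, Scn4b and Hcn2 from Sham kept direction and side of the threshold in every alternative.

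Total counts alone turned Gjc1 (0.37) and Hcn4 (0.088) between MI and Sham and Gja1 (-0.081) and Scn4b (-0.072) between iCarP+/Light+ and MI. It called 2 members higher between MI and Sham, with 7707 genes higher and 2776 lower, and 1 member lower between iCarP+/Light+ and MI, with 3926 genes called and 2722 lower. Against 304 genes lower in iCarP+/Light+ than in MI rats, DESeq2 size factors gave 457, DESeq2 763 and at least 10 counts in every rat 475. The cause was not tested.

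Same-numbered rats of different groups are different animals, and deviations in the 9 such pairs correlated by -0.15 to 0.0654, none over 0.1. With a replicate block, 1298 genes differed between iCarP+/Light+ and MI rats, 1157 higher and 141 lower, against 2051, 1747 and 304, and no member's call changed. Disc genes higher in MI than in Sham became 2 with the block, in place of 1. Between iCarP+/Light+ and MI, 0 disc genes and 0 transcription factors were called lower with the block, in place of 1 and 2, so that Ank3, Etv1 and Mef2c lost their calls.

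With each rat left out in turn, genes called between iCarP+/Light+ and MI numbered 1399 to 2504. Genes called higher in iCarP+/Light+ than in MI numbered 1125 (without iCarP+/Light+ 5) to 2066, and lower 157 (without iCarP+/Light+ 2; 164 without MI 1) to 438. Ratio differences between MI and Sham were 0.82 to 1.45 for Gja5 to Gja1, 0.75 to 1.05 for Gjc1 to Gja1 and 2.81 to 4.15 for Hcn4 to Hcn2. Between iCarP+/Light+ and Sham they were 0.84 to 1.06 for Gja5 to Gja1 and 4.10 to 5.03 for Hcn4 to Hcn2, and between iCarP+/Light+ and MI -0.50 to 0.13 for Gja5 to Gja1. With 3 against 4 rats the exact p cannot go below 0.0571, so these losses say nothing about stability. Gja5 ranged from -0.092 to 0.33 (MI against Sham), -0.27 to 0.15 (iCarP+/Light+ against MI) and -0.026 to 0.18 (iCarP+/Light+ against Sham), Scn4b from -0.11 to 0.98 (iCarP+/Light+ against MI), and Hcn4 from -0.015 to 1.12 (iCarP+/Light+ against MI) and -0.54 to 0.44 (iCarP+/Light+ against Sham).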
